A study of Mus musculus with 22 samples.

Results

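The genes described here are 10 genes of fibroblast growth factor (FGF) signalling in mouse embryonic stem cells: the ligand Fgf4 and 9 genes that the pathway is known to switch on and that, for the most part, restrain it, Spry2, Spry4, Spred1, Spred2, Dusp4, Dusp6, Etv4, Etv5 and Il17rd. They were matched by gene symbol, and all 10 were found among the 18487 genes of the expression table. All 10 passed the filter on low values, as did 17275 genes in all. RNA was sequenced from E14 cells, an embryonic stem cell line derived from a 129 strain mouse blastocyst, cultured per the study's methods in serum with leukaemia inhibitory factor. The libraries form a group labelled NC and 10 groups treated with 1 compound each, namely Bromosporine, Chaetocin, CPTH2, DZNep, Garcinol, IOX1, MS023, OICR, UNC0379 or Valproate, with 2 libraries per group and 22 in all. No genotype change, dose or exposure time is given in the labels, the label OICR does not name a compound in full, and the content of NC is not stated.

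The compounds act on chromatin enzymes or readers. Valproate inhibits histone deacetylases, Bromosporine binds bromodomains, which read acetylated lysines, and CPTH2 and Garcinol inhibit histone acetyltransferases. DZNep blocks S-adenosylhomocysteine hydrolase and thereby disturbs methyl transfer, MS023 inhibits type I arginine methyltransferases, UNC0379 inhibits the lysine methyltransferase SETD8, Chaetocin is used against lysine methyltransferases, and IOX1 inhibits 2-oxoglutarate-dependent oxygenases.

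In embryonic stem cells FGF4 is secreted by the cells themselves, binds FGF receptors on the same or neighbouring cells and acts through RAS, RAF and MEK to phosphorylate the kinases ERK1 and ERK2. ERK activity readies the cells to leave the naive state, and it also turns on its own brakes. Sprouty and Spred proteins act on the steps around RAS and RAF, IL17RD (SEF) acts at the membrane, and dual-specificity phosphatases take the phosphates off ERK. ETV4 and ETV5 are ETS transcription factors that carry the signal to target genes, and the RNA of these genes is widely read as a gauge of pathway activity.

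The promoters of Dusp6 and Spry2 are shown because both genes belong to the feedback group and lay on opposite sides of NC with Valproate, although Spry2 did not pass the test there. Upstream windows were matched by symbol to RefSeq for 7 of the 10 genes, in 8 windows, on build GRCm38.p6. No window was matched for Dusp4, Etv4 or Spry4, so their promoters were not examined. Each sequence is the 250 bases before the annotated start, 5′ to 3′ on the gene's own strand, with CG dinucleotides in capitals. The Dusp6 window is chr10:99262981-99263230 on the plus strand and the Spry2 window is chr14:105896820-105897069 on the minus strand.
Dusp6: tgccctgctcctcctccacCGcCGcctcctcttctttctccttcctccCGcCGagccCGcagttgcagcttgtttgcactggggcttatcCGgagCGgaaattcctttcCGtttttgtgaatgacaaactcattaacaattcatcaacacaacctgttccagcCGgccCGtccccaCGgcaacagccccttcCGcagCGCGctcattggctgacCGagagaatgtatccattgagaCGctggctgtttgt
Spry2: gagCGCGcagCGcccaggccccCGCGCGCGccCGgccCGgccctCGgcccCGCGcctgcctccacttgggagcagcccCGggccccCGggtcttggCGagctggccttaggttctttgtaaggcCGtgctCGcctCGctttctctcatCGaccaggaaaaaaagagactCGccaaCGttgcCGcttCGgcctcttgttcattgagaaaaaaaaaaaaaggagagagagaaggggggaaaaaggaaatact

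The Dusp6 window holds 16 CG dinucleotides and the Spry2 window 23, against a median of 6 over all RefSeq promoter windows of this length. The other windows of these genes hold between 10 in Il17rd and 31 in Spred1, so all 8 lie above that median. None of the 8 windows contains the letters of the ETS site CCGGAAGT or its core CCGGAA on either strand. Over all windows the shares are 2.88% and 12%, and every window with the longer site also has the core. None contains the cyclic AMP response element TGACGTCA, the AP-1 site TGANTCA or the E-box CACGTG, which 1.55%, 6.75% and 6.02% of all windows hold. These matches describe the letters of 250 bases only, and 8 windows are too few to tell an absence from these shares.

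Values are read counts per gene that the authors had normalized between libraries and rounded, called normalized counts below. They do not allow for gene length, so levels are compared between genes only after division by the length of the longest annotated transcript in kilobases. On that scale the genes in NC ran from 4786 ± 83.1 normalized counts per kilobase (SD, n = 2) for Etv5 down to 6.10 ± 0.89 for Spry4. Fgf4 (2393 ± 333) and Etv4 (1589 ± 376) followed Etv5, then Spred1 (652 ± 56.9), Spred2 (635.5 ± 22.7), Spry2 (211 ± 23.4), Il17rd (105 ± 6.32), Dusp6 (62.2 ± 13.2) and Dusp4 (16.4 ± 3.61). The stem cells therefore held Etv5 RNA at a far higher level than Dusp4 or Spry4 RNA. Of the 31-base words of the longest Etv5 transcript, 32.3% also occur in another gene. For the longest transcripts of the other 9 genes the share is at most 4.39%, so the split of reads for Etv5 is less certain. The read depth of each library is unknown from normalized values, and differences at a few normalized counts, as for Spry4, rest on few reads.

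With Valproate, the RNA of Etv4, Spry4 and Dusp6 fell, while Fgf4, Spry2, Spred1, Spred2, Dusp4, Etv5 and Il17rd did not pass the test. Etv4 fell the most, with a log2 change of -4.00, which was -3.20 without Valproate replicate 1 and -4.80 without Valproate replicate 2. Calls were made by limma on log2(value + 1) over all 22 libraries, with Benjamini-Hochberg adjustment in each contrast, and needed both a change over 2-fold and an adjusted p under 0.05. By that rule 3 of the 10 genes (30%) were called with Valproate, all 3 lower, against 5.28% of all genes tested. The members and gene lists were chosen with earlier results of these data known. This share and those given below are therefore descriptions and not independent evidence. The median log2 change over the 10 genes was -0.32, beside -0.023 over all genes tested. With the other 9 compounds 0 of the 10 genes were called by limma. Of those 90 pairs of gene and compound, 17 had an unadjusted p under 0.05 in limma. Among the pairs of all genes tested with these compounds, 12% did. In 49 of all 100 pairs of member and compound, the compound and NC values did not overlap. That share was not computed over all genes. Statements below that both libraries lay above or below NC therefore describe values and are not calls. The share of all genes called was 11.4% with DZNep, 3.34% with Bromosporine, 0.973% with MS023, 0.388% with OICR, 0.116% with IOX1, 0.0174% with Chaetocin, 0.00579% with CPTH2, 0.00579% with Garcinol and 0% with UNC0379. Nothing in the labels says that the 2 libraries of a group came from separate cultures, so these p-values measure the spread between libraries, which may be technical.

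**Figure D1:**
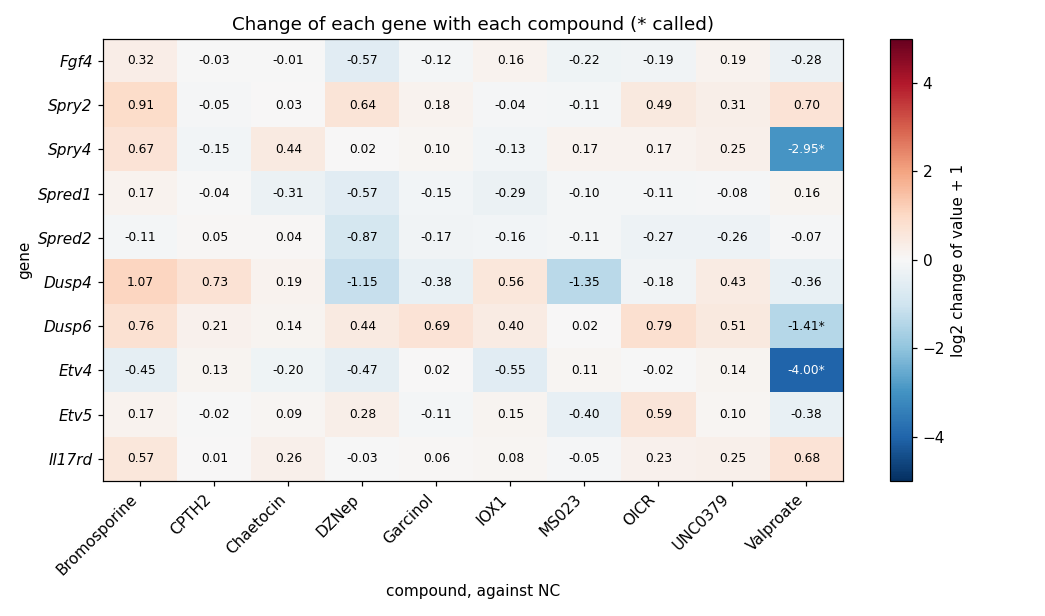
Log2 change of each of the 10 genes (rows) with each of the 10 compounds against NC (columns), on the log2(value + 1) scale, from limma; colour and printed number give the change, and an asterisk marks a call at adjusted p under 0.05 and over 2-fold. The called pairs are all in the Valproate column, at -4.00 for Etv4, -2.95 for Spry4 and -1.41 for Dusp6.

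Etv4 encodes an ETS factor downstream of ERK and lies on chromosome 11 of mm10, at 101769742 to 101785371 on the minus strand. It measured 3169 and 4442 normalized counts in the 2 NC libraries and 134 and 408 in the 2 Valproate libraries. Both Valproate values lay below every other library, since the remaining 20 ranged from 2006 to 4765. The change was -4.00 on the log2 scale (SE 0.44, limma adjusted p = 0.000149). The group means were 3805.5 ± 900 in NC and 271 ± 194 in Valproate (SD, n = 2).

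Etv5, the close relative of Etv4, lies on chromosome 16 at 22381309 to 22439719 on the minus strand. It measured 19257 and 18790 normalized counts in NC and 13634 and 15640 with Valproate, so both Valproate libraries were below both NC libraries. The difference of -0.38 (SE 0.13) had a limma adjusted p of 0.0884 and was far smaller than that of Etv4. The log2 ratio of Etv4 to Etv5 within a library was -2.60 and -2.08 in NC and -6.66 and -5.26 with Valproate, and lay between -3.47 and -1.57 in all other treated libraries. The 2 factors thus differed in how far they moved within the same Valproate libraries.

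Spry4 encodes a Sprouty inhibitor that acts near RAS and lies on chromosome 18 at 38586247 to 38601415 on the minus strand. It measured 26 and 32 normalized counts in NC and 4 and 2 with Valproate, and between 18 and 63 in the other 20 libraries, so again no other library reached the Valproate range. The change was -2.95 on the log2 scale (SE 0.44, limma adjusted p = 0.00107). At values this low the size depends on the pseudocount, and with 10 in place of 1 it was -1.58.

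Spry2, the other Sprouty gene of the set, lies on chromosome 14 at 105891947 to 105896819 on the minus strand. It measured 475 and 406 normalized counts in NC and 920 and 556 with Valproate. Both Valproate libraries were above both NC libraries, the opposite side to Spry4, but the difference of 0.70 (SE 0.27) had a limma adjusted p of 0.12. The log2 ratio of Spry4 to Spry2 was -4.14 and -3.62 in NC and -7.53 and -7.54 with Valproate.

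Dusp6 encodes a phosphatase that acts on ERK in the cytoplasm and lies on chromosome 10 at 99263231 to 99267489 on the plus strand. It measured 148 and 200 normalized counts in NC and 61 and 67 with Valproate. The other 20 libraries ran from 148 to 352, so the Valproate values were lowest here too. The change was -1.41 on the log2 scale (SE 0.20, limma adjusted p = 0.000862).

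Dusp4, a nuclear phosphatase of ERK, lies on chromosome 8 at 34807297 to 34819894 on the plus strand. It measured 52 and 38 normalized counts in NC and 62 and 19 with Valproate, and these ranges overlap. Its spread within groups was the widest of the 10 genes, with 176 and 31 for CPTH2, 148 and 29 for IOX1 and 133 and 19 for Chaetocin. The 5 values of 109 or more were all in libraries numbered 1, of Bromosporine, Chaetocin, CPTH2, IOX1 and UNC0379. Its largest mean difference from NC was with MS023, at 15 and 19 normalized counts, or -1.35 on the log2 scale (SE 1.02, limma adjusted p = 0.608), which the spread between libraries does not separate from NC.

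**Figure D2:**
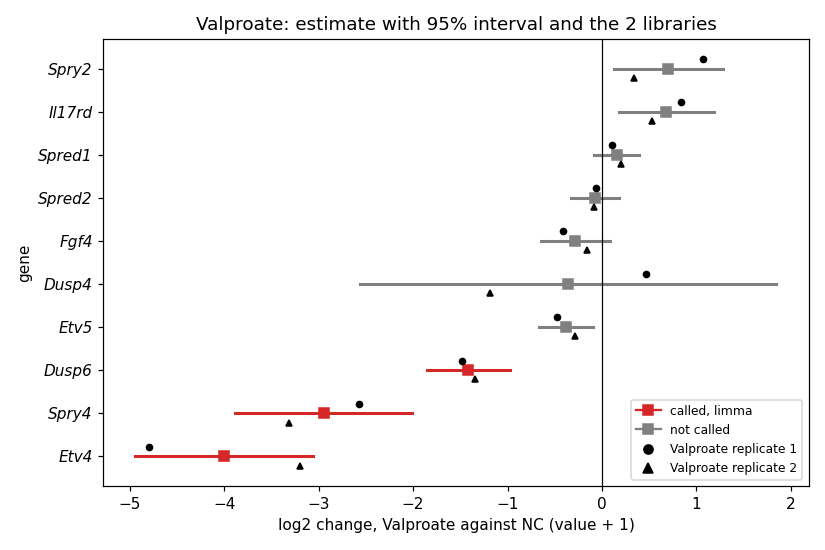
Log2 change with Valproate against NC for each of the 10 genes, on the log2(value + 1) scale. Squares with bars are limma estimates with 95% intervals, red where called, and the circle and triangle are the 2 Valproate libraries against the mean of the 2 NC libraries. Etv4 (-4.00), Spry4 (-2.95) and Dusp6 (-1.41) lie left of the other 7 genes.

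Il17rd, the Spred genes and the ligand did not pass the test with Valproate. Il17rd, a membrane protein that dampens FGF receptor signalling, lies on chromosome 14 at 27038941 to 27107286 on the plus strand. It measured 910 and 836 normalized counts in NC and 1558 and 1257 with Valproate, the largest difference from NC of this gene (0.68, SE 0.23, limma adjusted p = 0.0849). Spred1, a Spred protein that brings the RAS inactivator neurofibromin to the membrane, measured 4163 and 3679 in NC and 4218 and 4504 with Valproate (0.16, SE 0.11, limma adjusted p = 0.417). Spred2, of the same family, measured 2899 and 2756 in NC and 2713 and 2661 with Valproate (-0.07, SE 0.12, limma adjusted p = 0.767). Fgf4 itself, the ligand, measured 7963 and 6536 in NC and 5429 and 6464 with Valproate (-0.28, SE 0.17, limma adjusted p = 0.321).

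The comparison of Valproate with the mean of the other 10 groups does not rest on the 2 NC libraries alone. In it Etv4 differed by -3.87 (SE 0.32, limma adjusted p = 6.52e-06), Dusp6 by -1.81 (SE 0.15, limma adjusted p = 6.51e-06) and Spry4 by -3.10 (SE 0.32, limma adjusted p = 3.38e-05), and these 3 of the 10 genes were called, against 7.73% of all genes. Etv5 (-0.47, limma adjusted p = 0.00454), Spred1 (0.30, limma adjusted p = 0.0184) and Il17rd (0.54, limma adjusted p = 0.0412) passed the adjusted p there but not the 2-fold limit. The same 3 genes were called when either library of NC or of Valproate was left out, and without Valproate replicate 2 Spry2 was called as well (1.07, limma adjusted p = 0.0421). When only the 4 libraries of Valproate and NC entered the fit, which leaves 2 residual degrees of freedom, none of the 3 was called, with limma adjusted p of 0.0773 for Etv4, 0.122 for Spry4 and 0.124 for Dusp6. Over all 11 alternatives the adjusted p ran from 2.83e-06 to 0.0773 for Etv4, from 3.38e-05 to 0.122 for Spry4 and from 6.51e-06 to 0.124 for Dusp6.

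Markers of other cell types also differed between NC and the Valproate libraries. The summed normalized counts of 8 pluripotency markers (Pou5f1, Sox2, Nanog, Zfp42, Esrrb, Klf4, Tdgf1 and Utf1), all present, were 164215 to 167822 in NC and 172798 to 190215 with Valproate. Those of 5 of 6 listed trophoblast markers were 3254 to 3659 in NC and 5371 to 5876 with Valproate. The difference came mostly from Tfap2c (3379 and 2712 in NC against 4958 and 5480). Cdx2 (2 and 8 against 22 and 19) and Hand1 (9 and 4 against 11 and 17) were also above NC, at low values. Krt8 (140 and 411 against 275 and 172) and Eomes (129 and 119 against 105 and 188) overlapped. The summed counts of 6 fibroblast markers were 54 to 809 in NC, where Col3a1 measured 4 and 743, and 896 to 1422 with Valproate. There Thy1 was at 358 and 303 against 12 and 11 in NC, Lum at 197 and 331 against 0, and Dcn at 0. The collagen genes Col1a1 (24 and 24 in NC, 14 and 25 with Valproate) and Col1a2 (14 and 31, 20 and 41) overlapped between the groups, so the list did not move together. The 4 mesoderm markers summed to 168 to 212 in NC and 298 to 329 with Valproate, 5 of 7 primitive endoderm markers to 364 to 454 and 417 to 554, 5 formative and primed epiblast markers to 1125 to 1784 and 1658 to 2442, and 4 neural markers to 2270 to 2389 and 1921 to 1941. These lists were mixed too. Otx2 was below NC (82 and 206 against 404 and 338). Lef1 (350 and 194 against 29 and 42) and Pou3f1 were above it. Sox1 (252 and 283 against 742 and 514) and Pax6 were below NC, while Nes and Neurod1 overlapped it. Gata4 was below NC (97 and 108 against 156 and 154), and Sox17, Dab2 and Pdgfra above it. Sox2, Klf4 and Utf1 were above NC, and Pou5f1 and Esrrb below it. Of all these markers, only Dcn was at 0 in both Valproate libraries. Their part in the changes of Etv4, Spry4 and Dusp6 was not tested. In bulk RNA, fewer cells of a type and less RNA per cell cannot be told apart.

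With DZNep, 3 members passed an adjusted p of 0.05 without reaching a 2-fold change: both Spred genes and the ligand, all lower than in NC. Spred2, on chromosome 11 at 19924375 to 20024026 on the plus strand, measured 1504 and 1598 normalized counts with DZNep against 2899 and 2756 in NC, and 2280 to 3170 in the 20 libraries without DZNep. The difference was -0.87 on the log2 scale (SE 0.12, limma adjusted p = 0.000217). Spred1, on chromosome 2 at 117121374 to 117182279 on the plus strand, measured 2673 and 2614 against 4163 and 3679, below every library without DZNep, the lowest of which stood at 2817 (-0.57, SE 0.11, limma adjusted p = 0.00242). Fgf4, on chromosome 7 at 144847367 to 144865243 on the plus strand, measured 5293 and 4483 against 7963 and 6536, with 5429 as the lowest value elsewhere (-0.57, SE 0.17, limma adjusted p = 0.0267). For Fgf4 the limma adjusted p ran from 0.0023 to 0.225 over the alternatives, and it was over 0.05 with median-ratio rescaling (0.0539), without DZNep replicate 2 (0.144) and without NC replicate 1 (0.225), among others. At an adjusted p under 0.05 without the 2-fold limit, 23.6% of all genes passed with DZNep, so 3 of 10 is near the background.

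The phosphatases and the other feedback genes did not pass that test with DZNep. Spry2 measured 837 and 557 normalized counts against 475 and 406 in NC (0.64, SE 0.27, limma adjusted p = 0.103), and Dusp6 252 and 216 against 148 and 200 (0.44, SE 0.20, limma adjusted p = 0.14). Both DZNep libraries were above both NC libraries for these 2 genes. Etv5 measured 25722 and 20768, also above NC, while Spry4 (47 and 18) and Il17rd (1150 and 634) spread on both sides of it. Etv4 measured 2323 and 3170 with DZNep and overlapped NC by a single normalized count. Dusp4 was at 21 and 18. With DZNep the pluripotency markers summed to 241912 to 249086, the formative and primed epiblast markers to 2528 to 2947, the trophoblast markers to 3314 to 4003 and the mesoderm markers to 261 to 263. The trophoblast sum is mostly Tfap2c (2745 and 2576 against 3379 and 2712 in NC), which overlapped NC. Krt8 (881 and 504 against 140 and 411) and Eomes (356 and 199 against 129 and 119) were above NC. So were Cdx2 (9 and 11 against 2 and 8) and Hand1 (12 and 24 against 9 and 4), at low values. Within the pluripotency list Pou5f1, Nanog, Zfp42 and Utf1 were above NC, and Sox2, Esrrb and Klf4 overlapped it. Tdgf1 was below NC, at 11541 and 8477 against 25722 and 15640. The neural markers summed to 972 to 1369, below NC, as were Sox1, Pax6 and Nes. Neurod1 was above NC, at 414 and 186 against 44 and 91. The fibroblast markers summed to 935 to 1055, with Col1a1 at 327 and 228 against 24 and 24 in NC and Dcn and Lum at 0. The primitive endoderm markers summed to 467 to 739, but Gata4 was at 35 and 61 against 156 and 154 in NC. The part of these markers in the values of the 10 genes was not tested.

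With Bromosporine, Dusp6 measured 243 and 352 normalized counts against 148 and 200 in NC. The difference of 0.76 (SE 0.20, limma adjusted p = 0.0449) was under 2-fold and passed an adjusted p of 0.05, as did 5.4% of all genes. Without Bromosporine replicate 1, Dusp6 was called, at 1.03 (limma adjusted p = 0.0336). Spry2 measured 866 and 786 against 475 and 406, the largest difference of this gene with any compound (0.91, SE 0.27, limma adjusted p = 0.0674). Il17rd measured 1354 and 1238, both above NC, and Spry4 34 and 63, also both above NC. Etv4 measured 2006 and 3757 and overlapped NC. The median over the 10 genes was 0.45 on the log2 scale, beside 0.0068 over all genes tested. On average 8 of the 10 genes were above NC, beside 8881 of all 17275 genes tested. The same number, 8 of 10, was above NC with UNC0379, beside 8363 of 17275.

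With OICR, Etv5 measured 27771 and 29528 normalized counts against 19257 and 18790 in NC, and both OICR libraries were above all 20 others, of which the highest was 25722. The difference of 0.59 (SE 0.13) had a limma adjusted p of 0.068. Dusp6 measured 284 and 314 with OICR, above both NC libraries (0.79, SE 0.20, limma adjusted p = 0.108), and Spry2 703 and 539. Fgf4, at 6634 and 6024, overlapped NC. With MS023, Etv5 measured 14739 and 14138, below both NC libraries (-0.40, SE 0.13, limma adjusted p = 0.158), and Etv4 3459 and 4765, which overlaps them.

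The acetyltransferase inhibitor CPTH2 gave 0 of 10 genes at an unadjusted p under 0.05 in limma, against 0.944% of all genes. Garcinol, Chaetocin and IOX1 gave 1 each, against 3.62%, 4.72% and 12.4% of all genes. UNC0379 gave 2 of 10, against 6.08% of all genes, or 1051. Garcinol held Dusp6 at 288 and 269 normalized counts, above both NC libraries (0.69, SE 0.20, limma adjusted p = 0.967). Chaetocin held Spred1 at 3083 and 3245, below both NC libraries, and IOX1 held it at 2817 and 3615.

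**Figure D3:**
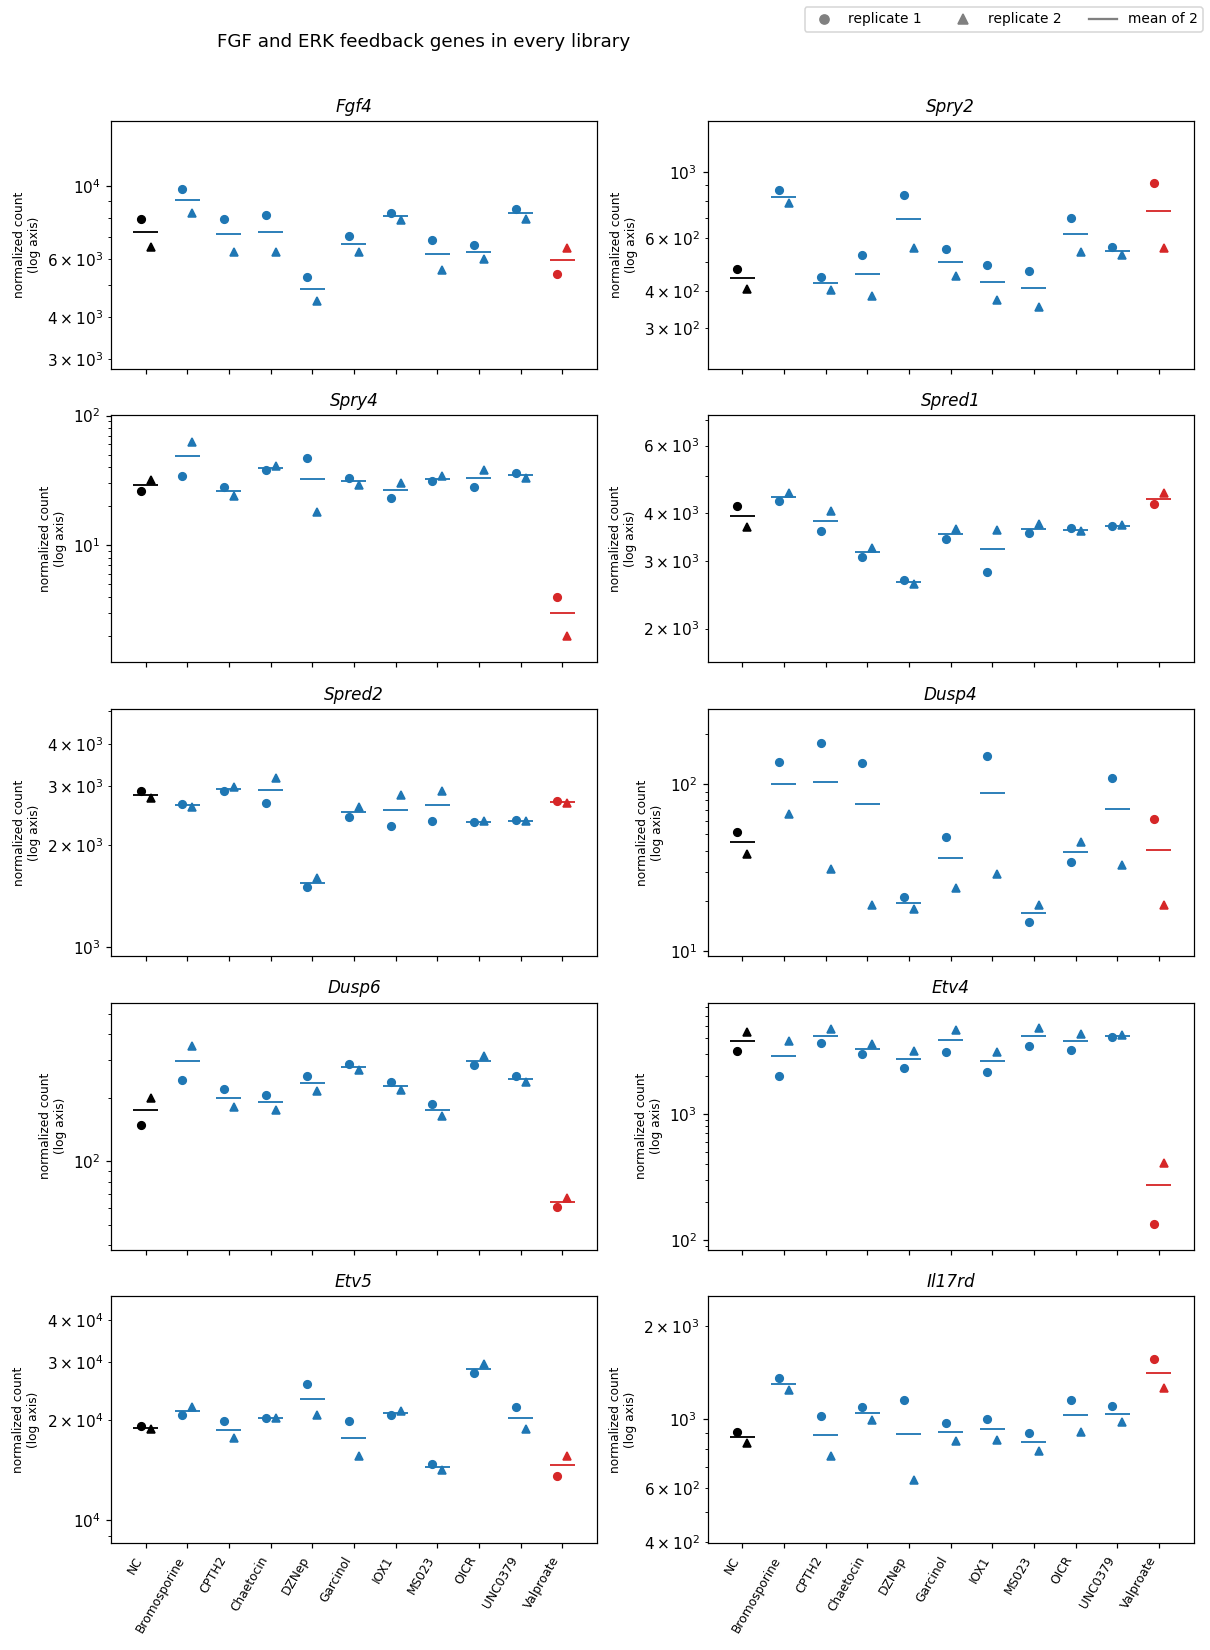
Normalized counts of each of the 10 genes in all 22 libraries, by group, on a log axis, with a circle for replicate 1, a triangle for replicate 2 and a line for the group mean, NC in black and Valproate in red. Etv4 (134 to 4765) and Spry4 (2 to 63) span the widest ranges, and Spred1 (2614 to 4504) the narrowest.

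Taking all groups at once, 7 of the 10 genes varied over the 11 groups in limma's F test at an adjusted p under 0.05, against 29.7% of all genes. As the genes were chosen with earlier results of these data known, this comparison is descriptive. Dusp6 (limma adjusted p = 0.000193), Etv4 (0.000409) and Spry4 (0.00194) came first, followed by Spred2 (0.00238), Etv5 (0.00259), Spred1 (0.00526) and Fgf4 (0.0307). Spry2 (limma adjusted p = 0.0547), Il17rd (0.185) and Dusp4 (0.556) did not pass. Over single libraries the highest value was 35.6 times the lowest for Etv4, 31.5 times for Spry4, 11.7 times for Dusp4 and 5.77 times for Dusp6, but between 1.72 times for Spred1 and 2.61 times for Spry2 in the other 6 genes.

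When the 11 groups were put in order of their means, most neighbours overlapped. For Etv4 the only gap in 10 steps was between IOX1 (2136 and 3071 normalized counts) and Valproate. For Fgf4 it was between Valproate and DZNep, and for Il17rd between Bromosporine and Chaetocin. The ranking of Spry2 had no gap at all, from Bromosporine (826 ± 56.6, SD, n = 2) to MS023 (410 ± 80.6). For Etv5, OICR stood apart from DZNep at the top, and Chaetocin, at 20309 in both libraries, from NC. Exact values recur between these quantile-normalized libraries, as 20768 does for Etv5 in Bromosporine, DZNep and IOX1. Equal values therefore do not show that the Chaetocin libraries lacked spread. Spred2 had 3 such gaps, and Spry4, Spred1 and Dusp6 had 2 each. Gaps were counted for these 10 genes only, so there is no share over all genes to set beside them.

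Several of these genes also differed between the libraries numbered 1 and 2 in the same direction in every group. Etv4 was higher in replicate 2 than in replicate 1 in all 11 groups, while Spry2 and Il17rd were lower in all 11. Fgf4 was lower in replicate 2 in 10 groups, with Valproate as the exception, and Dusp4 in 9, with a median difference of -1.02 on the log2 scale. These differences are part of the spread within each group. They were counted for the 10 genes only, without a share over all genes. Over all genes tested, 20 of 22 libraries correlated best with one of their own number from another group. The differences are therefore not read as particular to these genes.

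The 10 genes did not move as a single block across libraries. After centring within the replicate number, the 45 pairs of genes had a median Pearson r of 0.21 over 22 libraries, from -0.63 (Etv4 with Il17rd) to 0.88 (Spry4 with Etv4), and 10 pairs were over 0.5. The 3 highest were the pairs among Spry4, Etv4 and Dusp6. In the 20 libraries without Valproate the r of Spry4 with Etv4 was -0.004, the highest was 0.79 (Spry4 with Il17rd), and the median was 0.25. These values describe 22 libraries that share groups and normalization. Against the mean of the other feedback genes, Fgf4 had the highest r (0.67), followed by Dusp6 (0.465), Dusp4 (0.43) and Spry4 (0.42), and Spred2 the lowest (-0.005). Among 12857 genes with a mean of at least 100 normalized counts, those most like the mean profile of the 9 feedback genes were Irx2 (r = 0.917), Wdr90 (0.914), Sft2d3 (0.876), Pcdhgc3 (0.865), Ushbp1 (0.858), Tmem106c (0.857), Fut11 (0.856) and Gm14387 (0.845), over the 22 libraries. They were picked as the highest r of 12857, against a mean of genes that did not move together. Shared regulation was not tested.

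The rest of the pathway was followed in 66 further genes, of which 63 were in the table and all of these were tested: 9 ligands, 8 receptors and co-receptors, 19 transducers between receptor and ERK, 13 other inhibitors and 14 nuclear targets. With Valproate 2 of the 63 (3.17%, against 5.28% of all genes) were called. Fgf17, a ligand of the FGF8 subfamily, fell from 874 and 805 normalized counts to 42 and 41 (-4.30, SE 0.34, limma adjusted p = 1.46e-05). Ier3, an immediate early gene induced by ERK, rose from 114 and 93 to 244 and 279 (1.33, SE 0.34, limma adjusted p = 0.023). Without any 1 of the 4 libraries of NC and Valproate the count was 1, and the gene called was Fgf17. No transducer, receptor or other inhibitor was called with Valproate, and the median over the 63 genes was 0.05 on the log2 scale.

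With DZNep 12 of the 63 genes (19%, against 11.4% of all genes) were called, 9 lower and 3 higher. The 5 ligands among them all fell. Fgf17 went from 874 and 805 normalized counts to 235 and 165 (-2.09, SE 0.34, limma adjusted p = 0.000692), Fgf1 from 76 and 30 to 2 and 0, Fgf15 from 35 and 20 to 5 and 5, and Fgf8 from 15 and 11 to 2 and 4. The fifth, named after its values were seen, was Fgf3, from 383 and 362 to 169 and 188 (-1.06, SE 0.15, limma adjusted p = 0.000311). Among receptors, the glypican Gpc3 fell from 3581 and 2527 to 450 and 697 (-2.42, SE 0.53, limma adjusted p = 0.00475) and Fgfrl1, an FGF receptor without a kinase domain, from 916 and 658 to 404 and 354. Sos2, an exchange factor that loads RAS with GTP, fell from 476 and 400 to 203 and 207 and was the only transducer called. Of the nuclear targets, Myc rose from 4 and 19 to 230 and 161, Phlda1 from 61 and 52 to 280 and 233, and Etv2 from 24 and 20 to 154 and 129, while Bhlhe40 fell from 3446 and 1464 to 649 and 390. Without NC replicate 1 the count with DZNep was 5, made up of Fgf1, Fgf3, Fgf17, Etv2 and Phlda1.

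With Bromosporine 3 of the 63 genes (4.76%, against 3.34%) were called, all lower. Dusp9, an ERK phosphatase, fell from 8293 and 6943 normalized counts to 881 and 1600 (-2.68, SE 0.66, limma adjusted p = 0.0315), on the opposite side of NC to Dusp6. Ccnd1, which encodes cyclin D1, fell from 3394 and 4050 to 1177 and 1931, and Etv2 from 24 and 20 to 4 and 5. The count was 0 without NC replicate 1, without NC replicate 2 and without Bromosporine replicate 1. With MS023 1 gene (1.59%, against 0.973%) was called: Spred3, the third Spred gene, rose from 62 and 78 to 196 and 257 (1.68, SE 0.24, limma adjusted p = 0.00514), and it was not called without NC replicate 1. With the other 6 compounds limma called 0 of the 63, and between 1 (Chaetocin and CPTH2, 1.59%) and 7 (OICR and UNC0379, 11.1%) had an unadjusted p under 0.05. The share of all genes at that level was 4.72% with Chaetocin, 0.944% with CPTH2, 10.7% with OICR and 6.08% with UNC0379.

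**Figure D4:**
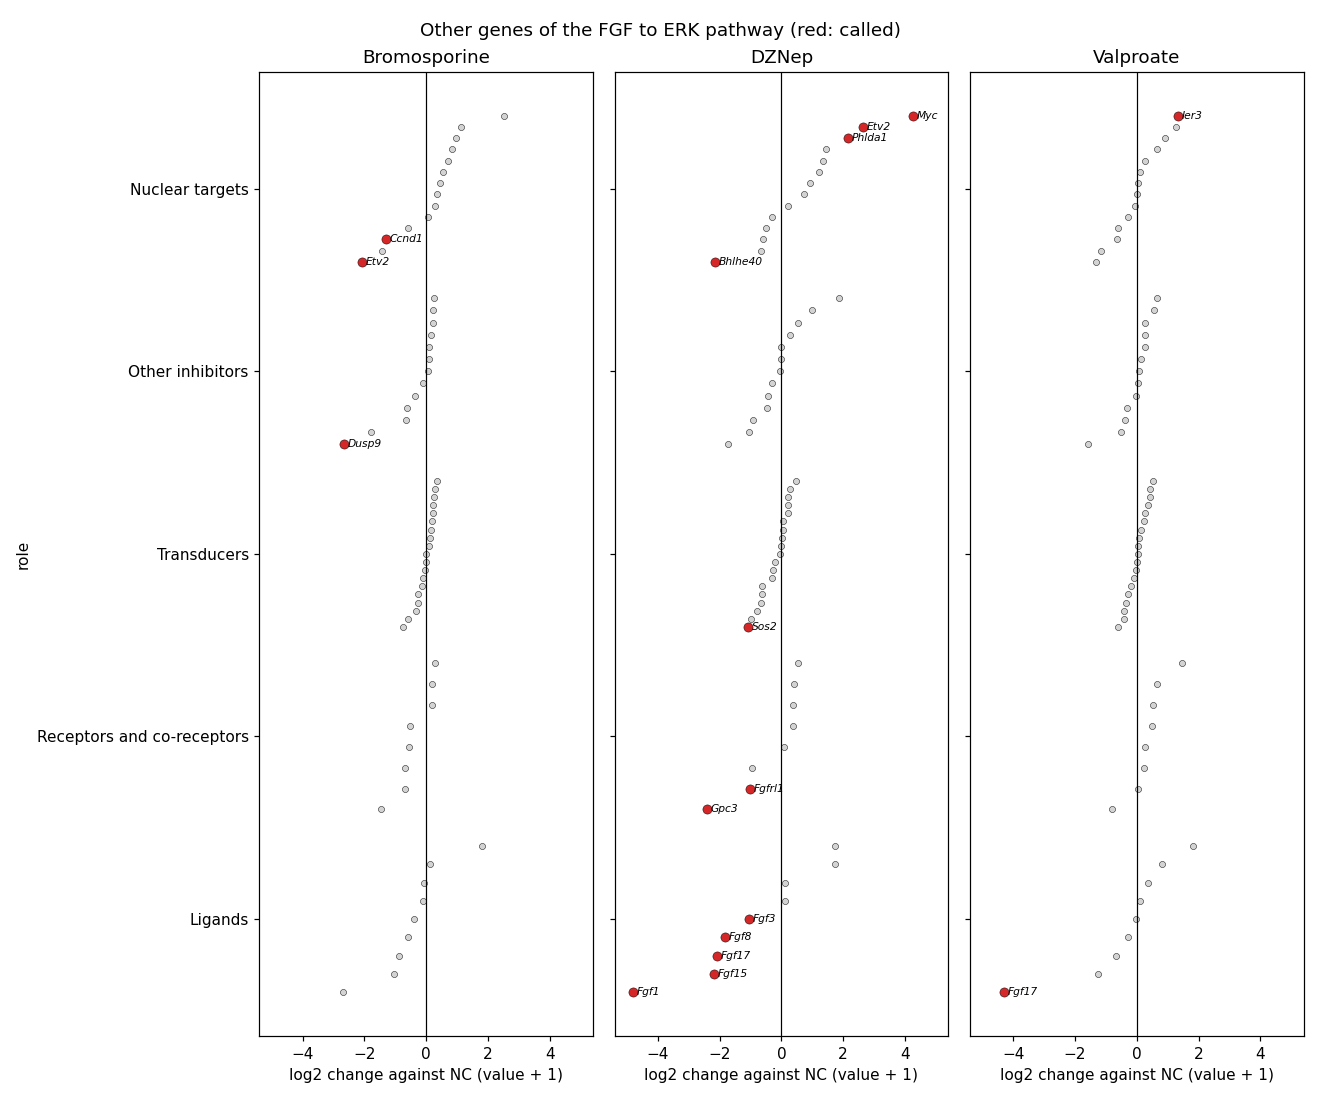
Log2 change against NC of the 63 further pathway genes by role, with Bromosporine, DZNep and Valproate, with the called genes in red and named. The ligand Fgf17 is the lowest point with Valproate (-4.30), and Myc is the highest with DZNep (4.27).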

How the data were processed

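RNA-seq was analysed in 22 libraries of E14 cells, grouped by treatment label. The deposited values are scores: per the study's methods, which do not mention the compounds, the authors aligned reads, counted them per gene with RSEM and Bowtie2 (version 2.2.5 and build mm10 per the submitters' processing notes), applied full-quantile normalization with EDASeq, and the table holds the rounded result. Libraries sum to 38403767 to 38419709, with a common median of 409, so depth is unknown, no interval that needs it was given, and a change shared by most genes would be removed. A second deposited table held the authors' group means, differed from the means of the first by at most 0, and was read for that check alone.

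Values were analysed as log2(value + 1), which understates changes of low genes. Genes that reached 10 in 2 or more libraries were tested with limma 3.58.1 in R 4.3.3 (11 group means, variance trend, 11 residual degrees of freedom, two-sided, Benjamini-Hochberg within each of 10 contrasts), after a check on simulated data. The members and gene lists were chosen with earlier results of these data known. Full statistics are given for called pairs and for the largest difference of each other member, plus pairs needed for context, and pathway genes are named where called, at most 4 per role and compound. Marker lists were summed over the genes present. Positions, lengths and shared 31-base words come from GENCODE M21 (mm10), and promoters from RefSeq. Alternatives were a pseudocount of 10, no filter, median-ratio rescaling (factors 0.971 to 1.04), a replicate block, the mean of the other groups as reference, adjustment over all contrasts, a fit of the compound and NC libraries only, and leaving out each library.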

Additional observations from a re-analysis of the deposited data

How the results depend on the processing

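None of the 10 pairs of gene and compound with full alternatives reversed its direction. With the mean of the other groups as reference, 23 of all 100 pairs of member and compound changed sign, 0 of them called, among them Spred2 with Valproate (0.11) and Etv4 with Bromosporine (0.03) and DZNep (0.01). Of 61 recomputed counts of called genes whose value was above 0, 42 stayed within 1.5 times it and 19 did not, and of 165 that were 0, 161 stayed at 0. Fitting the compound and NC libraries only, with 2 residual degrees of freedom, left 0 members called with Valproate in place of 3, and among pathway genes 0 with Bromosporine, 4 with DZNep, 0 with MS023 and 1 with Valproate. The mean of the other groups as reference gave 6 pathway genes with Bromosporine, and adjustment over all 10 contrasts gave 1 with Valproate. The labels do not say what a replicate number stands for, and the rule for a paired design, a correlation over 0.1 in every pair of groups, was not met: the correlation of the deviations of same-numbered libraries ran from 0.0535 to 0.298 over 55 pairs of groups, with 51 over 0.1. Still, 20 of 22 libraries correlated best with one of their own number, a hint from the data and not from the design. With the replicate block 3 members were still called with Valproate, and the pathway counts were 9 with Bromosporine, 18 with DZNep, 1 with IOX1, 2 with MS023, 2 with OICR and 6 with Valproate, Dusp9 included. In that fit 15 pairs of member and compound passed an adjusted p of 0.05 in place of 7, the 8 gained all under 2-fold: Spry2 with Bromosporine, DZNep and Valproate, Il17rd with Bromosporine and Valproate, Etv5 with OICR and Valproate, and Dusp6 with OICR. Leaving out 1 library at a time, the members called with Bromosporine ranged from 0 to 1 and with Valproate from 3 to 4, and the pathway genes from 0 to 2 with Bromosporine, 5 to 13 with DZNep, 0 to 1 with MS023, 0 to 1 with OICR (1 without NC replicate 2: Fgfrl1) and 1 each time with Valproate. Over the same fits the log2 change with Valproate ran from -4.80 to -3.20 for Etv4, from -3.31 to -2.58 for Spry4 and from -1.63 to -1.20 for Dusp6. The causes were not tested. Read depth is unknown, which limits the low genes Spry4 and Dusp4 most.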
